A study of Mus musculus with 13 samples.

Results

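The genes described here encode the proteases that shed the outermost cells of the epidermis, a protease that can activate them and their inhibitor. The 10 members were taken by name as 8 kallikreins (*Klk5*, *Klk6*, *Klk7*, *Klk8*, *Klk10*, *Klk11*, *Klk13* and *Klk14*), matriptase (*St14*) and *Spink5*, and all 10 were found among the 49315 genes counted in each library. RNA-Seq of full-thickness back skin at P4 was read from 3 WT mice and 3 littermate mice labelled DKO, whose genotype is K14Cre+Kctd1fl/flKctd15fl/fl. In DKO mice, a Cre recombinase driven by the keratin 14 promoter deletes the floxed alleles of the paralogs *Kctd1* and *Kctd15* in keratinocytes and in the hair follicles and glands that arise from them, and other cells of the skin keep both genes. The 7 epidermis libraries of the series, from mice at 3 weeks (3 K14Cre+Kctd15fl/fl and 4 K14Cre+Kctd1fl/flKctd15fl/fl), hold a count of 0 for every gene in the files used here and gave no value.

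In the cornified layer, dead keratinocytes are held together by corneodesmosomes, whose adhesion proteins are desmoglein 1, desmocollin 1 and corneodesmosin. Kallikreins are secreted as inactive proenzymes, become active by cleavage and cut these proteins, so that cells are shed. KLK5 is a trypsin-like kallikrein that can activate itself, KLK7 and KLK14, and matriptase is a membrane-bound serine protease that can act upstream of it. LEKTI, the product of *Spink5*, is cut into fragments that block KLK5, KLK7 and KLK14, and loss of LEKTI causes Netherton syndrome, in which the barrier is shed too early. These steps act on proteins, and the RNA measured here is the supply of each component.

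The 8 kallikreins lie along the plus strand of mouse chromosome 7 (GRCm38), from *Klk14* at chr7:43690418-43695536 to *Klk5* at chr7:43841971-43851181, with *Klk9* and *Klk12* among them. RefSeq promoter windows (GRCm38.p6, 250 bases before and 50 after each start) were matched for 8 of the 10 members, the kallikreins. The bases before the starts of 4 of them are shown because *Klk5* and *Klk14* are the members whose WT and DKO libraries did not overlap, *Klk7* has the highest WT level per kilobase of counted exons, and *Klk8* holds a motif of AP-2, the family of transcription factors that KCTD1 and KCTD15 are known to inhibit. Capitals mark the match to GCCNNNGGC, and each stretch is on the plus strand.
Klk5, chr7:43842068-43842268: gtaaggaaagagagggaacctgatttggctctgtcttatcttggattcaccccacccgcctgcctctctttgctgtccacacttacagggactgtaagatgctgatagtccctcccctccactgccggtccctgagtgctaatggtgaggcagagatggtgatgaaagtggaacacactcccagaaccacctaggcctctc
Klk14, chr7:43690168-43690417: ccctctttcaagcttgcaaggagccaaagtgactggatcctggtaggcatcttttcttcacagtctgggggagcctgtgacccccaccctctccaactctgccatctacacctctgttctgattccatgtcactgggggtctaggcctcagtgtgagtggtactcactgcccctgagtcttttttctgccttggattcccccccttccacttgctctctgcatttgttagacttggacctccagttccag
Klk7, chr7:43811044-43811293: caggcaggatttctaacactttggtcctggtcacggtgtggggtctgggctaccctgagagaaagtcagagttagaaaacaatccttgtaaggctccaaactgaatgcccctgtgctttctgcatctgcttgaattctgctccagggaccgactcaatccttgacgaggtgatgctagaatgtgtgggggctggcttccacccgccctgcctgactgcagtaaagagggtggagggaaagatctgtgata
Klk8, chr7:43797327-43797576: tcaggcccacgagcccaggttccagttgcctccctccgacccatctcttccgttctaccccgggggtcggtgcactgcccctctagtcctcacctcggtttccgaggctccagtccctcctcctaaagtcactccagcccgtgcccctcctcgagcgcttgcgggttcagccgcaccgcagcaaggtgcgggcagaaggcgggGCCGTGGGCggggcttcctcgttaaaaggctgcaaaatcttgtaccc
The *Klk5* stretch is 201 bases long because an annotated exon of another *Klk5* transcript ends just before it, which places it in an intron of that transcript. On both strands, GCCNNNGGC was found in 1 of the 8 members, *Klk8*, at bases -47 to -39 from the start, and in 16.6% of the 32851 windows of all genes. The longer form GCCNNNNGGC was found in 1 of the 8, *Klk13*, at bases 22 to 31 after the start, and in 14.8% of all windows. Both shares are near those of all genes, and the *Klk5*, *Klk7* and *Klk14* windows do not hold these letters.

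The 6 libraries held between 11263863 and 17643043 counts on genes, and DKO replicate 1 was the smallest. A count of 3, taken as the floor, corresponds to between 0.17 and 0.266 CPM (counts scaled to library size), and this limit covers counting error only. Normalized counts below are counts divided by the effective library size from edgeR's TMM method and multiplied by the mean of these sizes. For *Kctd1* and *Kctd15*, the targeted genes, all 3 DKO libraries lay above all 3 WT libraries, with log2 fold changes of 0.78 and 0.83 (adjusted p = 0.342 and 0.106 in edgeR). The floxed part of each gene is 1 exon, whose loss cannot be read from counts of the whole gene, and the directions below follow the labels. The study's methods report from RNA-Seq that Cre removed these exons efficiently. They name epidermal sheets of mice lacking *Kctd1* or *Kctd15* alone in keratinocytes, and DKO mice. DKO replicate 1 stood apart in the markers of other cell types. Its summed level of 18 hair follicle markers was 5673 CPM against 14320 and 10536 CPM in DKO replicates 2 and 3 and 14046 to 15764 CPM in WT, and that of 18 skeletal muscle markers was 21767 CPM against 10255 and 10292 CPM in the other DKO libraries and 6323 to 7228 CPM in WT.

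None of the desquamation genes passed the threshold for a change between DKO and WT skin. With edgeR's quasi-likelihood test and Benjamini-Hochberg adjustment over 20168 genes, 0 of the 9 members tested were called, where a call needs an adjusted p-value under 0.05 together with a log2 fold change beyond 1 in either direction. Of all genes, 0.0694% were called, 0.0397% higher and 0.0298% lower in DKO. DESeq2 also called 0 of the 9 members to which it gave an adjusted p-value, against 0.827% of all genes. At an unadjusted p-value under 0.05, 1 of the 9 passed in edgeR, *Klk5*, which was lower in DKO, where 2.54% of all genes passed in that direction and 7.5% in both. DESeq2 passed 2 of 10 at this level, *Klk5* and *Klk14*, both lower, where 1.54% of its 33676 genes passed in that direction and 4.44% in both. The log2 fold changes ran from -0.68 for *Klk5* to 0.57 for *Klk6*. Of the 9 values, 5 were positive and 4 negative, beside 47.1% negative among all genes, and with library sizes taken from suprabasal keratinocyte markers all but *Klk6* were negative, as were 86.9% of all genes (median -0.35). Their median was 0.05, beside 0.02 over all genes tested. *Klk14* had too few counts for the test. The groups did not overlap for 1 of the 9 tested members, *Klk5*, and 5.96% of all genes tested had every DKO library below every WT library. In bulk skin, fewer cells of a type and less RNA per cell cannot be told apart.

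**Figure D1:**
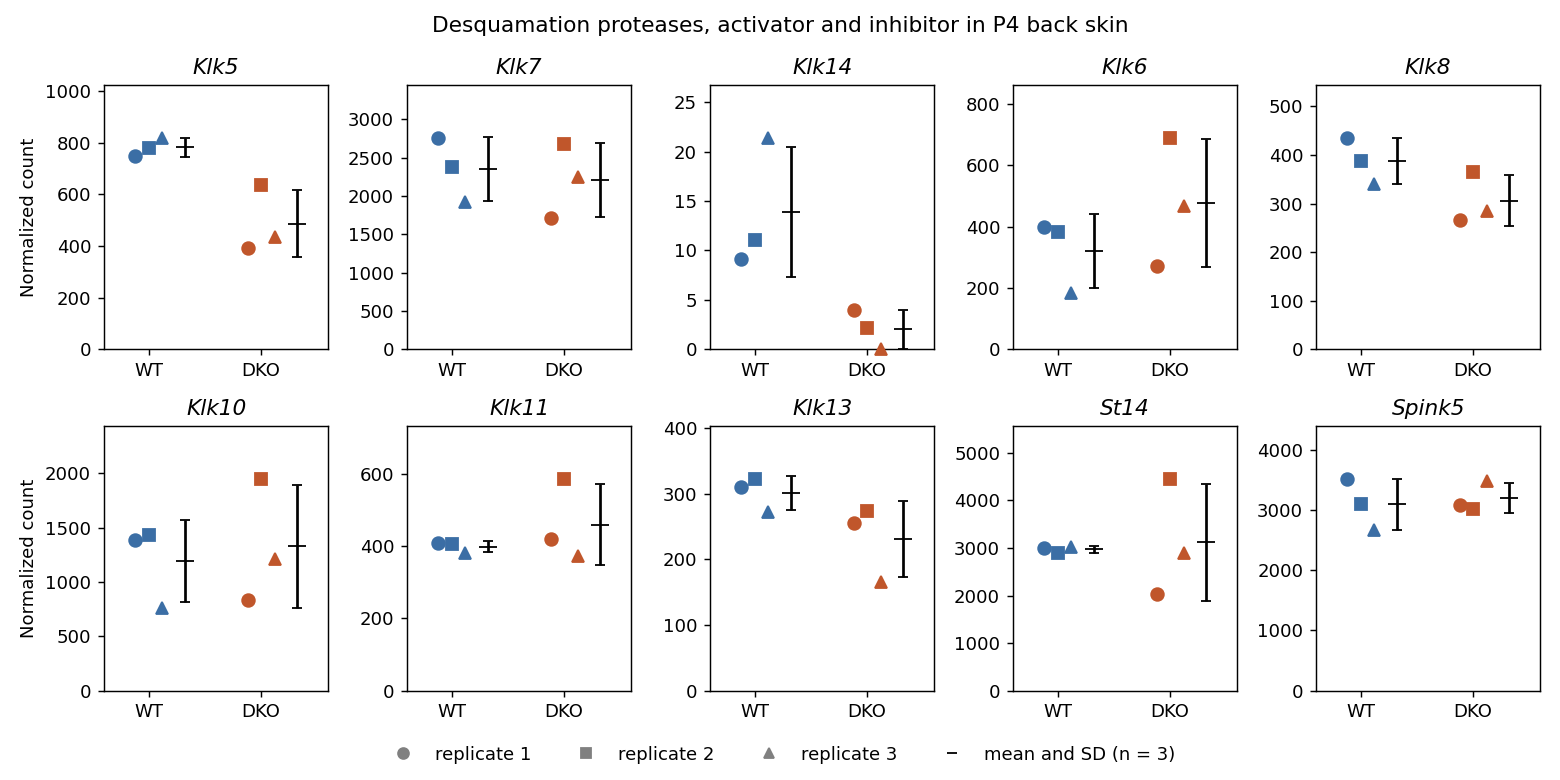
Normalized counts (y axes, starting at 0) of the 10 members in 3 WT (blue) and 3 DKO (orange) libraries of P4 back skin, with the mean and SD of each group (n = 3) beside the points. The WT and DKO points of *Klk5* and *Klk14* do not overlap, those of the other members do, and the WT points of *St14* and *Klk11* lie close together while DKO replicate 2 lies above them.

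*Klk5* (ENSMUSG00000074155), which encodes the kallikrein that starts the cascade, had WT normalized counts of 747, 779 and 819 and DKO normalized counts of 392, 635 and 434, in the order of the replicates. Every DKO library was below every WT library, and DKO replicate 2 lay closest to WT. The means were 782 ± 35.9 and 487 ± 130 (SD, n = 3). The log2 fold change of -0.68 (SE 0.186, 95% interval from -1.10 to -0.26) did not pass the adjustment over all genes (adjusted p = 0.339 in edgeR). With DESeq2, the log2 fold change was -0.70 and the adjusted p-value 0.0624. The value depended on DKO replicate 2. Without this library the log2 fold change was -0.92 and the adjusted p-value 0.0297 in edgeR, and without DKO replicate 1, the library with few hair follicle counts, it was -0.57 with an adjusted p-value of 0.417. *Klk5* was negative under each of the 23 settings run and had an adjusted p-value under 0.05 in 5 of them.

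*Klk7* (ENSMUSG00000030713), the chymotrypsin-like kallikrein of the cornified layer, had normalized counts of 2760, 2376 and 1920 in WT and 1712, 2680 and 2249 in DKO. The groups overlapped, and DKO replicate 1 was the lowest of the 6 libraries. The means were 2352 ± 421 and 2214 ± 485 (SD, n = 3), with a log2 fold change of -0.09 and a 95% interval from -0.51 to 0.33 (adjusted p = 0.966, edgeR).

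*Klk14* (ENSMUSG00000044737), a trypsin-like kallikrein that KLK5 can activate, was at the edge of detection. It had 9, 13 and 25 counts in WT and 3, 2 and 0 counts in DKO, without normalization, which correspond to normalized counts of 9.17, 11.03 and 21.4 and of 3.94, 2.21 and 0. Each DKO library was at or under the floor of 3 counts, and each WT library was above it. The pooled counts were 47 in WT and 5 in DKO, a ratio of 0.132 after library size, with an exact 95% interval from 0.0411 to 0.332 that covers counting error and not the spread between mice. The gene did not pass edgeR's filter on low counts, and without the filter its log2 fold change was -2.81 (adjusted p = 0.084). DESeq2 gave -2.85 and no adjusted p-value. A long noncoding RNA on the opposite strand, 2310002F09Rik, overlaps 287 of the 1271 counted bases of *Klk14*. How the counting used strand is not given in the sources used here, and reads in the shared bases cannot be told apart without it. 2310002F09Rik itself had normalized counts of 78.5, 75.5 and 121 in WT and 55.2, 61.8 and 70.7 in DKO, with every DKO library below WT and a log2 fold change of -0.55 (adjusted p = 0.701, edgeR).

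*Klk8* (ENSMUSG00000064023), or neuropsin, and *Klk13* (ENSMUSG00000054046), both trypsin-like, also had negative values. *Klk8* had normalized counts of 435, 388 and 340 in WT and 267, 365 and 285 in DKO. *Klk13* had 310, 322 and 272 in WT and 255, 274 and 165 in DKO. In each gene 2 DKO libraries lay below all WT libraries and DKO replicate 2 lay among them. The log2 fold changes were -0.34 for *Klk8* and -0.38 for *Klk13*, with 95% intervals from -0.73 to 0.04 and from -0.84 to 0.07 (adjusted p = 0.750 and 0.772, edgeR). Both values were negative under each of the 23 settings, but that of *Klk13* was -0.19 without DKO replicate 3. Of the 1540 counted bases of *Klk8*, 382 are shared with 2310002F09Rik.

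*Klk6*, *Klk10* and *Klk11* had positive values, and DKO replicate 2 was the highest library in each. *Klk6* (ENSMUSG00000050063), or neurosin, had normalized counts of 398, 384 and 182 in WT and 273, 689 and 466 in DKO. WT replicate 3 was the lowest library, as it was in *Klk10* (ENSMUSG00000030693), with 1383, 1432 and 758 in WT and 832, 1947 and 1211 in DKO. *Klk11* (ENSMUSG00000067616) was even across WT, at 407, 407 and 380, and had 419, 585 and 371 in DKO. The groups overlapped in all 3 genes. The log2 fold changes were 0.57 for *Klk6*, 0.16 for *Klk10* and 0.20 for *Klk11*, each with a 95% interval that includes 0 (adjusted p = 0.834, 0.961 and 0.917, edgeR). *Klk6* was at 0.22 without DKO replicate 2, 0.27 without WT replicate 3 and 0.83 without DKO replicate 1. Without DKO replicate 2, *Klk10* was at -0.21 and *Klk11* at -0.01, and with library sizes from suprabasal keratinocyte markers they were at -0.25 and -0.19.

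*St14* (ENSMUSG00000031995, chr9:31089402-31131853, minus strand), the activator, had normalized counts of 3008, 2888 and 3025 in WT and 2030, 4450 and 2888 in DKO. The WT libraries lay within a narrow range, and the DKO libraries held both the lowest and the highest value of the 6. The means were 2974 ± 74.9 and 3122 ± 1227 (SD, n = 3), and the 95% interval of the log2 fold change of 0.07 ran from -0.46 to 0.60 (adjusted p = 0.977, edgeR). It was -0.27 without DKO replicate 2 and -0.32 with library sizes from suprabasal keratinocyte markers.

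*Spink5* (ENSMUSG00000055561, chr18:43963235-44022501, plus strand), the inhibitor, had normalized counts of 3513, 3107 and 2660 in WT and 3090, 3022 and 3482 in DKO. The DKO libraries lay within the range of the WT libraries. The log2 fold change of 0.05 (SE 0.137) had a 95% interval from -0.26 to 0.36 (adjusted p = 0.975, edgeR), the narrowest interval of the 9 members tested. It was -0.32 with library sizes from suprabasal keratinocyte markers, under which the median of all genes was -0.35.

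**Figure D2:**
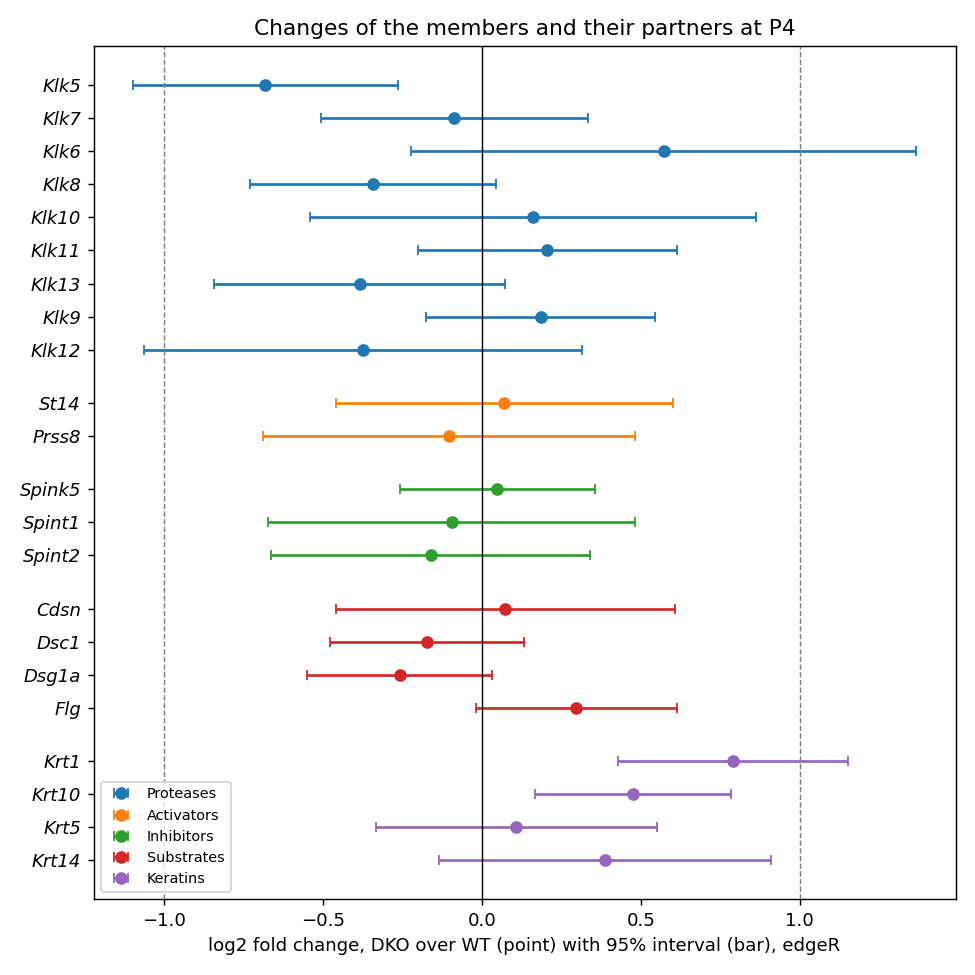
Log2 fold change of DKO over WT (x axis, points) with its 95% interval (bars) from edgeR for the 9 members tested, *Klk9* and *Klk12*, other activators and inhibitors, substrates and 4 keratins. Dashed lines mark the fold threshold of 1. The bars of *Klk5*, *Krt1* and *Krt10* do not include 0, and none of the genes drawn passed the adjusted threshold.

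Scaled to the length of the counted exons, as CPM per kb, the WT levels ran from 0.717 for *Klk14* to 81.6 for *Klk7*. *Klk7* (81.6 ± 14.6, SD, n = 3) was followed by *Klk10* (57.0 ± 18.0), *Spink5* (42.5 ± 5.86), *Klk5* (38.5 ± 1.77), *St14* (25.6 ± 0.645), *Klk11* (17.8 ± 0.692), *Klk8* (16.6 ± 2.02), *Klk6* (13.95 ± 5.24), *Klk13* (8.63 ± 0.751) and *Klk14* (0.717 ± 0.340). In this order the WT libraries of *Klk5* and *St14*, of *St14* and *Klk11*, and of *Klk13* and *Klk14* did not overlap, and those of the other neighbours did. In DKO skin, *Klk7* (76.8 ± 16.8), *Klk10* (63.7 ± 27.1) and *Spink5* (43.9 ± 3.41) kept the first ranks. *St14* (26.9 ± 10.6) then had a higher mean than *Klk5* (24.0 ± 6.41), and the DKO libraries of these 2 genes overlapped.

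**Figure D3:**
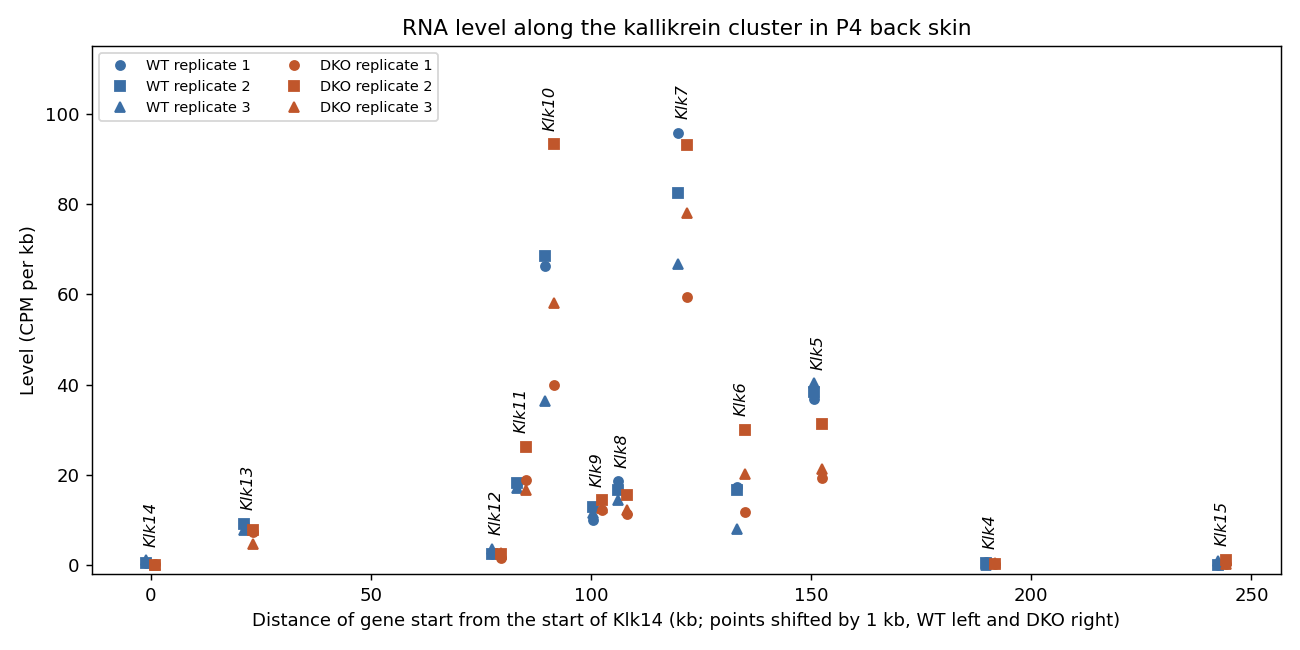
Level in CPM per kb (y axis) of each kallikrein from *Klk14* to *Klk15* against the distance of its start from that of *Klk14* (x axis, kb), with WT points drawn 1 kb to the left and DKO points 1 kb to the right. *Klk10* reaches 93.2 and *Klk7* 95.8 in single libraries, while *Klk14*, *Klk4* and *Klk15* lie near 0 in both groups.

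The share of *Klk5* in the kallikrein RNA was also lower in DKO. Of the summed level of the 8 kallikreins per kilobase, *Klk5* made up 14.02%, 15.3% and 21.0% in WT and 11.5%, 10.5% and 10.1% in DKO, so the groups did not overlap. *Klk7* made up 36.5%, 32.9% and 34.8% in WT and 35.3%, 31.3% and 37.0% in DKO. The log2 ratio of *Klk5* to *Klk7* was -1.38, -1.10 and -0.73 in WT and -1.62, -1.57 and -1.87 in DKO, again without overlap. These ratios were formed after the values of *Klk5* were known and use the same counts, and they were not tested.

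The balance of the summed proteases to inhibitor differed by less than the spread between DKO libraries. The log2 ratio of the summed 8 kallikreins to *Spink5*, both per kilobase, was 2.44, 2.55 and 2.39 in WT and 1.99, 2.84 and 2.14 in DKO. The WT libraries lay within the range of the DKO libraries. The means were 2.46 ± 0.083 and 2.32 ± 0.455 (SD, n = 3), a difference of -0.14, and it was 0.03 without DKO replicate 1 and -0.40 without DKO replicate 2. With *Klk5*, *Klk7* and *Klk14* alone in the sum, the difference was -0.33, and the groups overlapped as well. The log2 ratio of *Klk5* alone to *Spink5* was -0.39, -0.16 and 0.14 in WT and -1.14, -0.41 and -1.16 in DKO. Every DKO library was below every WT library in this ratio, and the means differed by -0.77. For *Klk7* alone over *Spink5* the difference was -0.15, with overlapping groups. The ratios of single genes use the counts given above and were not tested.

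**Figure D4:**
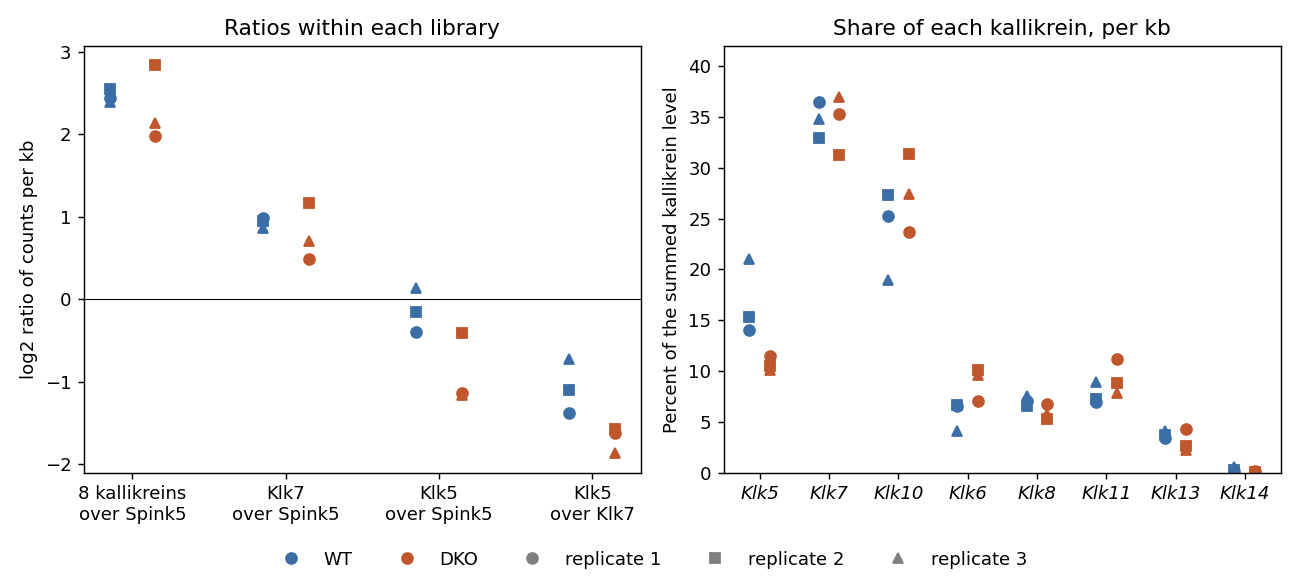
Left, log2 ratio of counts per kb (y axis) within each WT (blue) and DKO (orange) library for the 8 kallikreins, *Klk7* and *Klk5* over *Spink5* and for *Klk5* over *Klk7*. Right, percent of the summed kallikrein level per kb taken by each kallikrein. The DKO points of *Klk5* lie between 10.1% and 11.5%, below the WT points at 14.02% to 21.0%, and DKO replicate 2 has the highest ratio of the 8 kallikreins to *Spink5*, at 2.84.

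The members scattered more in DKO than in WT, with *Spink5* as the exception. The coefficient of variation was 2.52% in WT and 39.3% in DKO for *St14*, 4.60% and 26.7% for *Klk5*, 3.88% and 24.4% for *Klk11*, and 13.8% and 7.76% for *Spink5*. It was 8.71% and 25.05% for *Klk13*, 12.2% and 17.1% for *Klk8*, and 17.9% and 21.9% for *Klk7*. For *Klk10* it was 31.55% and 42.6%, for *Klk6* 37.5% and 43.7%, and for *Klk14*, near the floor, 47.5% and 96.4%. Across the 12330 tested genes with a mean normalized count over 100, the median was 7.79% in WT and 17.3% in DKO. A larger scatter in DKO was thus not particular to the members. DKO replicate 2 was the highest of the 6 libraries in 4 of the 9 tested members, as in 29.4% of all genes, and DKO replicate 1 was the lowest in 4 of 9, as in 23.6% of all genes.

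Most other kallikreins had few or no counts in P4 skin. Of 18 other kallikrein genes, 11 had a count of 0 in all 6 libraries, 14 had under 10 counts in total, and 2 were tested. Counts of the *Klk1b* genes, near-identical copies of each other, are uncertain, because how the counting treated reads shared by copies is not given. *Klk9* had normalized counts of 224, 291 and 262 in WT and 276, 323 and 285 in DKO, with a log2 fold change of 0.18 (adjusted p = 0.916, edgeR). *Klk12* had 43.8, 46.7 and 66.7 in WT and 27.6, 45.2 and 47.8 in DKO, with a log2 fold change of -0.37 (adjusted p = 0.906, edgeR). Both groups of both genes overlapped.

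Among 16 other serine proteases tested, edgeR called 0, and DESeq2 called 0 of the 15 to which it gave an adjusted p-value. In edgeR, 3 passed an unadjusted p-value under 0.05, all higher in DKO, beside 4.96% of all genes. *Furin*, a convertase that cuts proproteins, had normalized counts of 3008, 3021 and 2857 in WT and 3353, 5810 and 3629 in DKO, and its log2 fold change was 0.53 (adjusted p = 0.535, edgeR). *Tmprss11a*, a type II transmembrane serine protease, had few counts, at 1.02, 8.49 and 3.42 in WT and 14.5, 12.1 and 23.9 in DKO, with a log2 fold change of 1.91 (adjusted p = 0.434, edgeR). It passed the filter on low counts only through its DKO libraries, where it is high, so its place among these 3 is no support. *Hpn*, or hepsin, had a log2 fold change of 0.81 (adjusted p = 0.601, edgeR). The groups did not overlap in these 3 genes, which were named for their small p-values. Of the 16 tested, 4 did not overlap upward and 1 downward, beside 7.24% and 5.96% of all genes. *Prss8*, or prostasin, a partner of matriptase that was picked after its values were seen, had a log2 fold change of -0.10 (adjusted p = 0.971, edgeR).

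Of 7 other protease inhibitors tested, edgeR called 0. DESeq2 called 1 of the 5 to which it gave an adjusted p-value, beside 0.827% of all genes. The called gene was *Wfdc21*, a secreted protein with a WAP domain. *Wfdc21* had normalized counts of 300, 254 and 370 in WT and 74.9, 156 and 116 in DKO, and every DKO library was below every WT library. Its log2 fold change was -1.41 (SE 0.261, adjusted p = 0.146 in edgeR and 1.30e-04 in DESeq2). It was the only gene of the 7 with an unadjusted p-value under 0.05 in edgeR, where 2.54% of all genes passed in that direction. It was also the only one of the 7 without overlap, beside 5.96% of all genes downward. The Kunitz inhibitor *Spint2* had a log2 fold change of -0.16 (adjusted p = 0.946, edgeR), and *Spint1*, a related inhibitor picked after its values were seen, had -0.10 (adjusted p = 0.974, edgeR). *Spink12*, of the same family as *Spink5*, had between 5.13 and 15.9 normalized counts in the 6 libraries and a log2 fold change of 0.56 (adjusted p = 0.906, edgeR).

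Of 10 substrates and targets of these proteases tested, edgeR called 0, and DESeq2 called 0 of the 8 to which it gave an adjusted p-value. In edgeR, 0 passed an unadjusted p-value under 0.05, and the median log2 fold change was -0.08. *Flg*, which encodes profilaggrin, had normalized counts of 27131, 27635 and 24188 in WT and 31113, 35488 and 30419 in DKO, and *Dsg1a*, a desmoglein 1 gene, had 13970, 12475 and 13241 in WT and 10570, 10539 and 12072 in DKO. The groups did not overlap in either gene, with DKO above WT for *Flg* and below it for *Dsg1a*, and the log2 fold changes were 0.30 for *Flg* and -0.26 for *Dsg1a* (adjusted p = 0.703 and 0.750, edgeR). *Flg2*, a relative of *Flg* picked after its values were seen, also had every DKO library below WT (log2 fold change -0.16, adjusted p = 0.894, edgeR), so 1 of the 10 did not overlap upward and 2 downward, beside 7.24% and 5.96% of all genes. *Dsg1c* had 8.96 to 42.8 normalized counts in the 6 libraries and a log2 fold change of -0.93 (adjusted p = 0.772, edgeR). Corneodesmosin (*Cdsn*) and desmocollin 1 (*Dsc1*), picked after their values were seen, were at 0.07 and -0.17 (adjusted p = 0.976 and 0.901, edgeR).

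Of 12 other proteases and hydrolases of the cornified layer tested, both tools called 0. In edgeR, 1 passed an unadjusted p-value under 0.05, *Ctsc*, or cathepsin C, which was lower in DKO. Of all genes, 2.54% passed in that direction and 7.5% in both, and 5.96% had every DKO library below every WT library. *Ctsc* had normalized counts of 3002, 2501 and 3105 in WT and 2350, 1875 and 2256 in DKO, without overlap, and a log2 fold change of -0.41 (adjusted p = 0.479, edgeR). *Casp14*, a caspase of the cornified layer, and *Blmh*, a protease that degrades filaggrin, had log2 fold changes of -0.22 and 0.18 (adjusted p = 0.811 and 0.881, edgeR).

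The labelled tissue carried the markers of the cells that make these proteases. *Krt1* and *Krt10*, keratins of suprabasal cells, had 25698 to 29327 and 28118 to 30614 normalized counts in WT and 39452 to 54200 and 37267 to 43032 in DKO. They had log2 fold changes of 0.79 and 0.48 (adjusted p = 0.202 and 0.352, edgeR), each with every DKO library above every WT library, and DESeq2 gave adjusted p-values of 8.68e-04 and 0.0688. Other suprabasal markers went the opposite way. Of the 17 tested, 4 did not overlap upward, *Krt1* and *Krt10* among them, and 3 downward, beside 7.24% and 5.96% of all genes. The 3 downward markers were picked after their values were seen. *Calml3*, a calmodulin-like protein, had a log2 fold change of -1.05, *Elovl4*, an elongase of very long fatty acids, -0.80, and *Krt77*, a keratin, -0.79 (adjusted p = 0.135, 0.168 and 0.302 in edgeR and 2.72e-04, 0.00113 and 0.0326 in DESeq2). *Calml3* was the only suprabasal marker called by DESeq2. *Krt5* and *Krt14*, keratins of basal cells, had log2 fold changes of 0.11 and 0.39 with overlapping groups (adjusted p = 0.959 and 0.819, edgeR). Of 17 suprabasal markers tested, 9 were positive and 8 negative with a median of 0.11, and of 10 basal markers 9 were positive with a median of 0.09. The negative basal marker was *Krt15*, named after its values were seen, with a log2 fold change of -0.60 (adjusted p = 0.485, edgeR). Its DKO libraries all lay below its WT libraries, as in 5.96% of all genes tested. *Krt2*, another suprabasal keratin, had 0 to 7.64 normalized counts in the 6 libraries. The summed suprabasal level was 6381 to 6740 CPM in WT and 7687 to 9367 CPM in DKO.

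Markers of other cell types in full-thickness skin differed between the groups in DESeq2. It called 12 of 18 skeletal muscle, 5 of 12 sebaceous gland, 2 of 11 adipocyte and 0 of 18 hair follicle markers, beside 0.827% of all genes. In each of these lists edgeR called 0. At an unadjusted p-value under 0.05, edgeR passed 15 muscle and 2 adipocyte markers, all higher in DKO, beside 4.96% of all genes. It passed 7 sebaceous and 3 hair follicle markers, all lower, beside 2.54% of all genes. In edgeR's fold changes, of 18 hair follicle markers 17 were negative (median -0.30), of 12 sebaceous gland markers 10 were negative (median -0.87), and all 18 skeletal muscle markers were positive (median 1.09). The summed sebaceous level was 1588 to 1674 CPM in WT and 1002, 1493 and 1045 CPM in DKO replicates 1 to 3. DKO replicate 2 was the nearest to WT in the hair follicle, sebaceous and *Klk5* levels, and the part of these cells in the *Klk5* result was not tested. With the skeletal muscle markers removed from the library sizes, *Klk5* was at -0.70 (adjusted p = 0.301, edgeR). Fibroblast markers were positive in 9 of 9 (median 0.22), adipocyte markers in 8 of 11 (0.23), endothelial markers in 3 of 5 (0.24), immune markers in 5 of 8 (0.05) and melanocyte markers in 3 of 6 (-0.04).

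**Figure D5:**
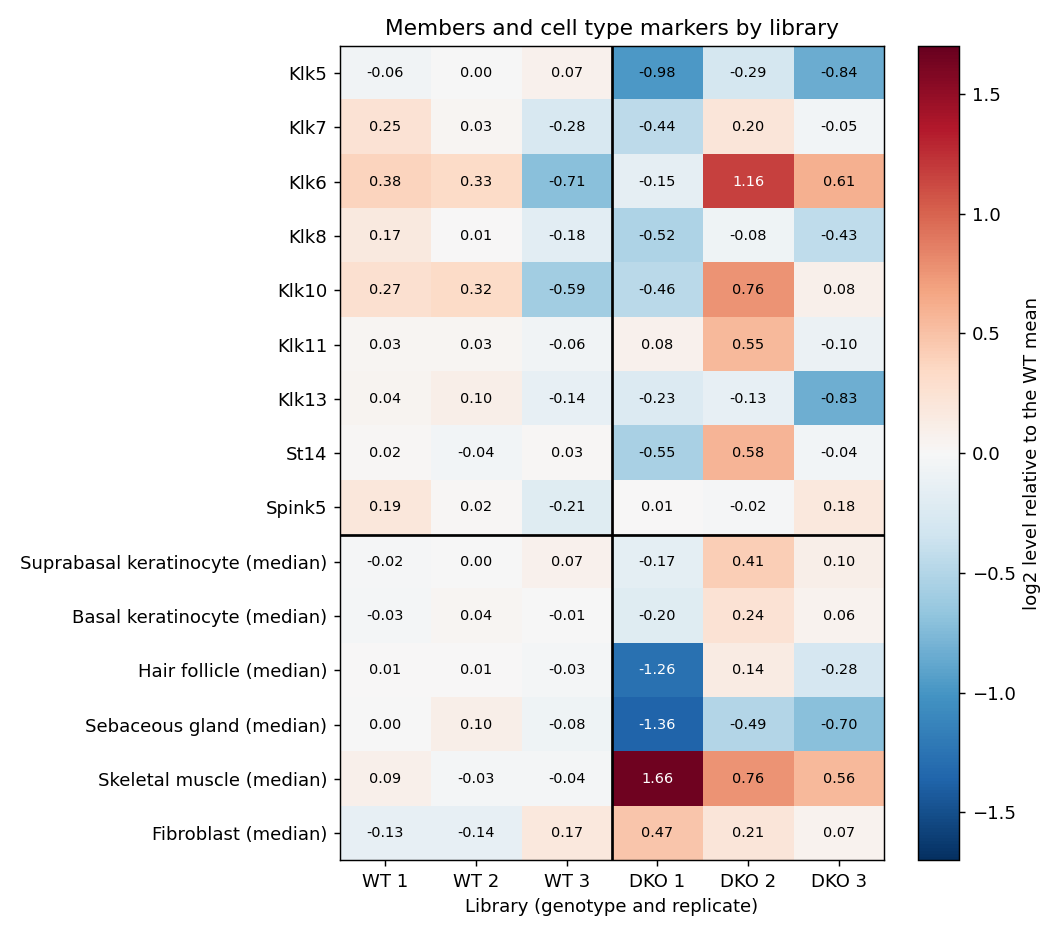
Log2 level of each of the 9 tested members, and the median of 6 cell type marker lists, relative to the WT mean (color scale) in each of the 6 libraries (columns). *Klk5* is at -0.98, -0.29 and -0.84 in DKO replicates 1 to 3, and hair follicle markers are at -1.26, 0.14 and -0.28 in the same libraries.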

How the data were processed

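Total RNA from P4 back skin (3 WT and 3 DKO mice) was read as deposited counts per gene, whole numbers without normalization. Per the labels and the study's methods, the authors depleted rRNA and processed paired-end reads with Trimmomatic 0.36, STAR 2.5.2b (GRCm38) and featureCounts of Subread 1.5.2. How the counting used strand or shared reads is not given in the sources used here. Symbols were matched for 99.3% of 49315 genes.

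The test was that of edgeR 4.0.16 in R 4.3.3 (filterByExpr, TMM, quasi-likelihood F test, Benjamini-Hochberg over 20168 genes). Calls used the study's thresholds, 0.05 for the adjusted p-value and 1 for the size of the log2 fold change. DESeq2 1.42.0, the study's tool, was an alternative. In simulated counts, 200 of 200 genes changed by a log2 of 2 were recovered by edgeR (7 false calls, 20170 genes tested) and 198 by DESeq2. The simulation gave all genes and both groups the same scatter and changed only genes above a minimum mean count. The measured scatter was unequal, with a median coefficient of variation of 7.79% in WT and 17.3% in DKO. The simulation thus does not give the recovery in these libraries. Recovery at smaller log2 fold changes, such as the -0.68 of *Klk5*, was not tested. For groups of 3 mice, the smallest two-sided p of an exact permutation test is 0.1. Nothing states whether the mice of a group were handled apart, so p-values measure the spread between these libraries.

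The members and gene lists were chosen with earlier results of these data known. Named beside the members are tested kallikreins, the 3 genes with the smallest p-values and any called gene of the lists of other serine proteases, inhibitors, substrates and cornified-layer enzymes, and *Krt1*, *Krt10*, *Krt5* and *Krt14*. *Prss8*, *Spint1*, *Cdsn*, *Dsc1*, *Flg2*, *Krt2*, *Calml3*, *Elovl4*, *Krt77*, *Krt15*, *Tslp* and *F2rl1* were named after their values were seen. Library sizes, filters, tools, the number shared in the titles and the left-out libraries were varied. The libraries of 4 mice, and DESeq2 with left-out libraries or the block, were added after seeing the data.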

Additional observations from a re-analysis of the deposited data

How the results depend on the processing

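The 14 genes called by edgeR became 152 with DESeq2, 22 with total counts, 74 (7 higher, 67 lower) with library sizes from suprabasal keratinocyte markers, 210 with no filter on low counts and 9 in the 4 libraries numbered 47347. With 1 library left out they ranged from 2 to 36 in edgeR and from 65 to 207 in DESeq2. Members called stayed at 0 in every setting but 1, which scaled libraries to a sum of counts in which *Krt1* and *Krt10* weigh most. These 2 had log2 fold changes of 0.79 and 0.48, beside a median of 0.11 over the 17 suprabasal markers tested. With suprabasal library sizes, whose marker sum was higher in each DKO library, *Klk5* was called (log2 fold change -1.07, adjusted p = 0.0269), the members' median was -0.40 and that of all genes -0.35 (86.9% negative), and *Klk10*, *Klk11*, *St14* and *Spink5* turned to -0.25, -0.19, -0.32 and -0.32.

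The adjusted p-value of *Klk5* ran from 7.56e-07 (DESeq2 without DKO replicate 2) to 0.902 (the 4 libraries numbered 47347, where *Klk5* was at -0.54 and *Spink5* turned to -0.042). It was also under 0.05 with no filter (0.0351), without DKO replicate 2 in edgeR (0.0297) and in DESeq2 with the block (0.0355). With 1 library left out in either tool, *Klk5* ran from -0.92 to -0.57, the members' median from -0.26 (without DKO replicate 2) to 0.056, and the protease to *Spink5* ratio from -0.40 to 0.029. In the same fits, *Klk7* (-0.25 to 0.052), *Klk10* (-0.22 to 0.39), *Klk11* (-0.011 to 0.34), *St14* (-0.27 to 0.29) and *Spink5* (-0.066 to 0.14) changed sign without at least 1 library, while *Klk6* (0.21 to 0.83) and *Klk13* (-0.53 to -0.19) kept theirs. The cause was not tested.

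The titles of both groups share the numbers 40972 and 47347, whose meaning the labels do not give. The deviations of the 2 libraries numbered 40972 from their group means correlated at 0.256 across genes. With the shared number as a replicate block, edgeR called 35 genes and DESeq2 150, both called 0 members, and *Klk5* was at -0.69 (adjusted p = 0.222) in edgeR. *Klk6* was at 0.57 with the block, with an SE of 0.171 against 0.355 without it (adjusted p = 0.280 in edgeR and 0.223 in DESeq2). Within the numbers 40972 and 47347, the log2 ratio of *Klk5* was -1.06 and -0.51, and that of *Klk6* 0.59 and 0.56. It was -0.35 and -0.34 for *Klk8* and -0.09 and -0.53 for *Klk13*. *St14* (-0.58 and 0.32) and *Spink5* (0.22 and -0.03) differed in sign between the numbers, and the other members did not. Depth limited *Klk14*, which had at most 25 counts in a library.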

Other observations

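*Tslp*, which encodes a cytokine that keratinocytes are known to release when KLK5 activates the receptor PAR2, did not pass the filter on low counts. It had normalized counts of 4.08, 2.55 and 3.42 in WT and 11.8, 9.93 and 11.9 in DKO. Each DKO library was above each WT library, as in 7.24% of the genes tested. DESeq2 gave a log2 fold change of 1.74 (SE 0.824), an unadjusted p-value of 0.0344 and no adjusted p-value. *F2rl1*, which encodes PAR2, had a log2 fold change of 0.09 with overlapping groups (adjusted p = 0.967, edgeR). Both genes were picked after their values were seen, and neither counts among the changes described above.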
